A study of Mus musculus with 6 samples.

Results

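Pyruvate is committed to oxidation in the mitochondrion by the pyruvate dehydrogenase complex. Its transcripts were compared here in the gastrocnemius (Gas) muscle of miR-92b knockout (M92KO) and wild-type (WT) mice, across the rows of the count table whose symbol is that of a core subunit (Pdha1, Pdhb, Dlat, Pdhx), an inhibitory kinase (Pdk1, Pdk2, Pdk3, Pdk4) or an activating phosphatase (Pdp1, Pdp2). All 10 genes were found among the 34714 symbols, and all 10 were among the 15788 genes that passed the filter on low counts. Each group held 3 mice of 8 weeks of age that had received no treatment. M92KO mice are miR-92b-/- animals of the C57BL/6JGpt background that lack the miRNA in every tissue and not only in muscle, and the WT controls were age-matched C57BL/6 mice. The study's methods give male mice. The supplementary methods describe an overnight fast before tissue collection, in passages on mice after treatment or training, and neither they nor the labels give the feeding state for each of these untreated mice. The labels give no batch. The study sequenced this muscle to look for molecular changes that come with the loss of miR-92b. The targeted miRNA gene, Mir92b, was not analysed here, and the genotype of the libraries was not checked from its level.

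The complex joins glycolysis to the citric acid cycle. Its E1 component (Pdha1, Pdhb) decarboxylates pyruvate, E2 (Dlat) passes the acetyl group to coenzyme A, E3 (Dld) reoxidizes the lipoyl arm, and the E3 binding protein (Pdhx) holds E3 on the core. The kinases phosphorylate E1 and switch the complex off, and the phosphatases remove that phosphate and switch it on. In skeletal muscle, Pdk4 is the kinase known for its rise in fasting and its fall after feeding, so its transcript is often read beside those of fatty acid use. These are transcript levels, and the phosphorylation and activity of the complex were not analysed here.

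The 2 miRNAs lost in the knockout and the closest matches in the transcripts are shown first, because direct targets of a miRNA usually carry a match to its seed (bases 2 to 8) in the 3′-UTR. The mature sequences (RefSeq, GRCm38.p6, minus strand) have the seed in capitals. They lie at chr3:89227126-89227147 and chr3:89227165-89227188.
miR-92b-3p: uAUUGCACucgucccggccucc
miR-92b-5p: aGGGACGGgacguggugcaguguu
The seed of miR-92b-3p is shared by miR-25-3p, miR-32-5p, miR-92a-3p, miR-363-3p and miR-367-3p, of which miR-92a-3p is printed for comparison.
miR-92a-3p: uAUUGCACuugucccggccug

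In the GENCODE M21 annotation of GRCm38, no 3′-UTR of the 10 genes matched the miR-92b-3p seed over 7 or 8 bases, and none matched that of miR-92b-5p over 6 or more. Among the 13666 genes tested that have an annotated 3′-UTR, 14.5% held a 7-base or 8-base match to miR-92b-3p and 5.93% one to miR-92b-5p. The weaker match of 6 bases to miR-92b-3p was found once in each of 4 genes, Pdk1, Pdk2, Pdp1 and Dlat, where 27.4% of the genes held a match of at least 6 bases. These 4 sites are printed with their neighbouring bases and the match in capitals.
Pdk1 (chr2:71901907-71901936, plus strand): attacactttacTGCAATgatgaaatattt
Pdk2 (chr11:95026630-95026659, minus strand): atggtatgaagtTGCAATtgggaacttgag
Pdp1 (chr4:11958658-11958687, minus strand): tagaaatgtaaaTGCAATgtagaaaagatc
Dlat (chr9:50635520-50635549, minus strand): tgcagtgctacaTGCAATgcccagaacagg
The 2098 bases of the Pdk4 3′-UTR held no match to either seed. A match describes the letters only, and binding at these sites was not measured here.

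Library totals ran from 38246649 to 48209846 counts in WT and from 33160508 to 37019640 counts in M92KO mice, and values are given as CPM, read counts scaled to the TMM-normalized library size. One library stood apart from the others of its group. Per degree of freedom, the chi-square of the counts between M92KO replicate 1 and each other M92KO library was 57.4, against 10.9 between M92KO replicates 2 and 3 and 12.8 to 29.6 between WT libraries. Results on the members that rest on this library are therefore given with and without it, and so are the counts of the gene lists that it moved. In all 6 libraries the 12 genes of fast skeletal muscle summed to between 150564 and 168788 CPM, as in a muscle sample. That the muscle was the gastrocnemius rests on the label, which such a sum cannot check.

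Of the 10 genes, 0 passed an adjusted p-value of 0.05 in edgeR's quasi-likelihood test, and nor did any other gene (0.0% of the 15788 tested). At an unadjusted p-value under 0.05, Pdk4 was the single member, and it was lower in M92KO mice, where 6.92% of all genes were lower and 12.4% differed in either direction. It was also the single member whose groups did not overlap, in a table where this held for 18.4% of genes in all and for 9.58% in the lower direction. DESeq2's Wald test passed 2.19% of its genes at an adjusted p-value under 0.05 but 0 of the 10 members. The median log2 fold change of the 10 genes was 0.01, against 0.0 for all genes tested.

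**Figure D1:**
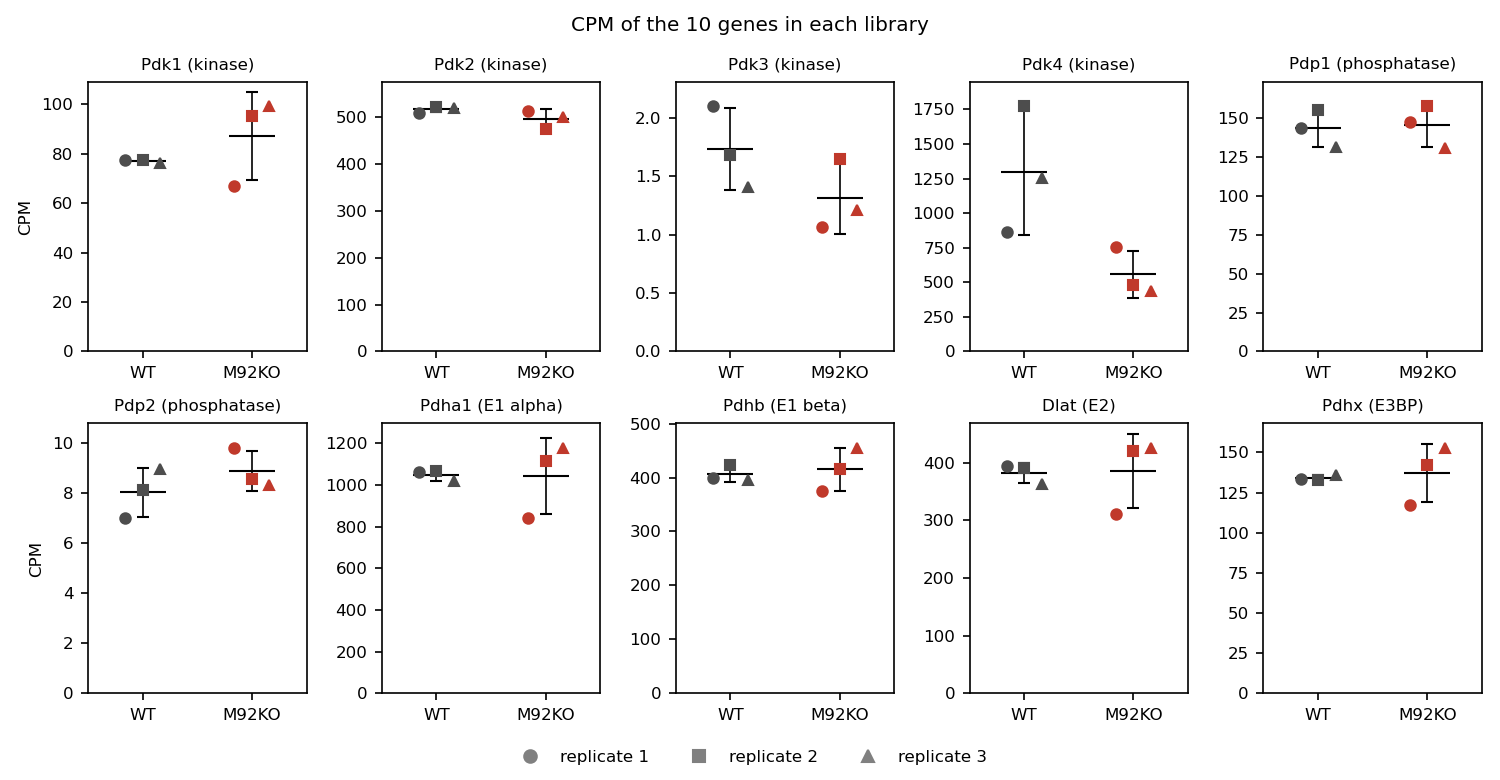
CPM of each of the 10 genes (y axis, from 0, with a scale of its own in each panel) in the 3 WT (grey) and 3 M92KO (red) libraries, with bars at the mean and whiskers of 1 SD and a marker shape for each replicate number. Pdk4 is the panel in which no M92KO point reaches a WT point, and the circle of M92KO replicate 1 is the lowest point for Pdk1, Pdk3 and the 4 subunit genes.

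Pdk4, the kinase induced by fasting (chromosome 6, 5483351 to 5496309, minus strand), was the member with the largest difference. The WT libraries held 864.3, 1775 and 1251 CPM of Pdk4, and the M92KO libraries held 753.8, 481.3 and 435.1 CPM. The groups were separate, but WT replicate 1 and M92KO replicate 1 stood close to each other. In CPM the spread was larger among the WT mice, whose mean was larger too, and relative to the mean the 2 spreads were similar. WT muscle averaged 1297 ± 457 CPM (SD, n = 3), and M92KO muscle averaged 556.8 ± 172 CPM (SD, n = 3). The fold change of M92KO over WT was 0.429, or -1.22 on the log2 scale (standard error 0.28, 95% interval -1.85 to -0.59). The adjusted p-value from edgeR was 0.179, and the two-sided exact permutation test gave p = 0.1, the smallest that 3 mice against 3 allow. In the edgeR fits that each left out 1 library, the log2 fold change lay between -1.50 without M92KO replicate 1 and -0.93 without WT replicate 2, and the unadjusted p-value stayed under 0.05 in 6 of 6 fits. The adjusted p-value was 0.0325 in edgeR without M92KO replicate 1, a fit in which 412 of the genes tested had one under 0.05. It was 0.0661 in DESeq2 with every library.

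Pdk2, the kinase most widely expressed across tissues (chromosome 11, 95026258 to 95041354, minus strand), had 509.5, 522.2 and 519.2 CPM in WT and 513.9, 475.7 and 501.3 CPM in M92KO libraries. The groups overlapped, and the 6 libraries lay close together. The log2 fold change of this gene was -0.06 (standard error 0.066, 95% interval -0.21 to 0.09, adjusted p = 0.782 from edgeR), so the interval leaves room for only a small change in either direction.

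Pdk1, a kinase that is also known as a target of hypoxia-inducible factor (chromosome 2, 71873224 to 71903858, plus strand), had 77.71, 77.67 and 76.13 CPM in WT and 66.86, 95.44 and 99.37 CPM in M92KO libraries. M92KO replicate 1 lay below every WT library and the other 2 lay above them. The log2 fold change was 0.18 (standard error 0.13, 95% interval -0.13 to 0.48, adjusted p = 0.655 from edgeR). Without M92KO replicate 1 it was 0.34 (standard error 0.051), for which edgeR gave an adjusted p-value of 0.0209. In that fit 412 of the genes tested had an adjusted p-value under 0.05, against 0 with every library. With any other library left out, the unadjusted p-value of Pdk1 was not under 0.05. The call on Pdk1 thus turned on a single library.

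Pdk3, a kinase known mainly from testis and brain (chromosome X, 93764607 to 93832201, minus strand), was the least abundant member, with 97, 65 and 67 reads in the WT libraries against 37, 54 and 44 in the M92KO ones. In CPM these were 2.1, 1.683 and 1.404 against 1.065, 1.649 and 1.212, and the groups overlapped. The log2 fold change of -0.40 had a standard error of 0.25 and a 95% interval of -0.97 to 0.17 (adjusted p = 0.571 from edgeR), so at this depth a difference of the size seen could not be told from 0.

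**Figure D2:**
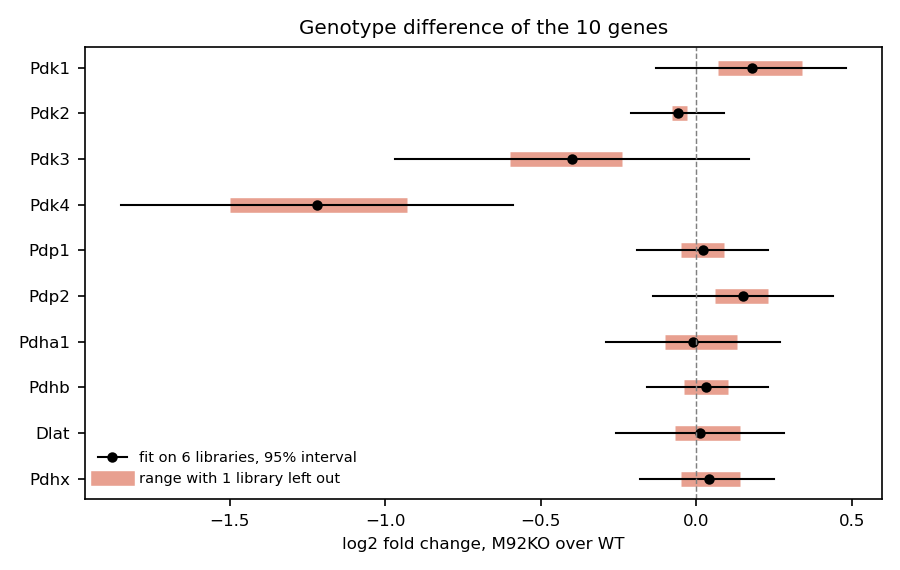
Log2 fold change of M92KO over WT (x axis) for the 10 genes, with the 95% interval of the edgeR fit as a line and the range of the 6 fits that each leave out 1 library as a band. The Pdk4 interval ends at -0.59, and the other 9 intervals include 0.

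Pdk4 and Pdk2 made up nearly all kinase transcripts. Levels of different genes were compared as CPM per kilobase, using the median length of a gene's complete annotated coding transcripts. Per kilobase, Pdk4 held 50.5%, 67.2% and 59.3% of the summed kinase level in WT against 47.2%, 37.4% and 34.0% in M92KO libraries. The share was lower in every M92KO library, by 19.5 percentage points on average, and no test was made of it since it is built from the members. Pdk2 held 38.4% ± 7.77 (SD, n = 3) in WT and 56.0% ± 5.52 (SD, n = 3) in M92KO muscle, Pdk1 held 2.48% ± 0.541 and 4.34% ± 1.32 in the same order, and Pdk3 stayed under 1% in every library. These shares add up to a whole, so the higher shares of Pdk2 and Pdk1 follow in part from the lower one of Pdk4.

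The summed level of the 4 kinases was 491, 758 and 606 CPM per kilobase in WT and 459, 369 and 368 CPM per kilobase in M92KO libraries. Pdk4 stood above Pdk2 in all WT libraries, at 1.09, 2.19 and 1.55 times its level, and below it in all M92KO libraries, at 0.946, 0.652 and 0.56 times. That crossing rests on the transcript lengths: with an incomplete annotated Pdk4 transcript included in the median, the M92KO ratios were 1.62, 1.12 and 0.961. The ratio of group means, 0.446, cannot depend on the lengths, since a length scales all 6 libraries alike.

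**Figure D3:**
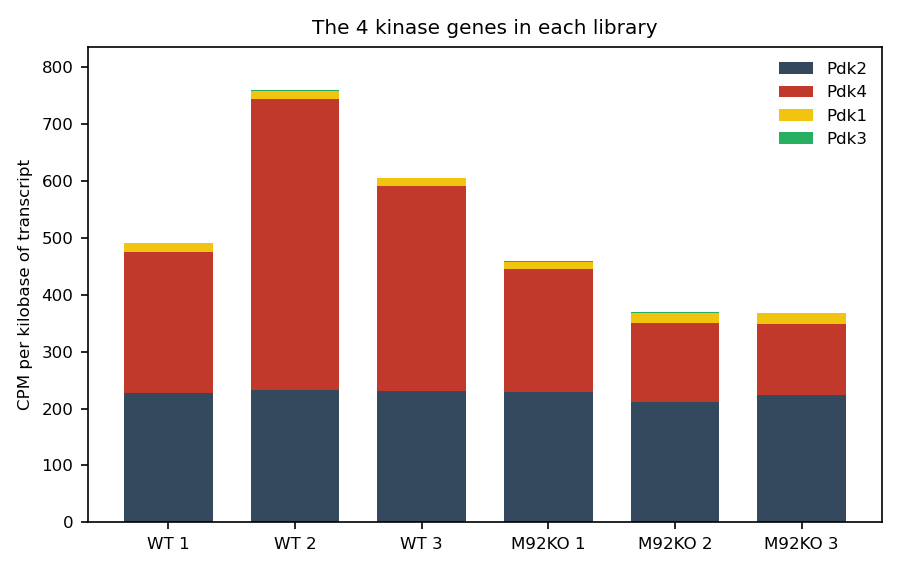
Level of the 4 kinase genes in CPM per kilobase of transcript (y axis), stacked for each WT and M92KO library (x axis). The Pdk2 block is of nearly one height throughout, at 212 to 233, and the Pdk4 block runs from 248 to 510 in WT and from 125 to 216 in M92KO libraries.

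Neither phosphatase had an unadjusted p-value under 0.05. Pdp1, the calcium-sensitive phosphatase of muscle mitochondria (chromosome 4, 11958184 to 11966452, minus strand), had 143.9, 155.4 and 131.8 CPM in WT and 147.5, 158.0 and 130.9 CPM in M92KO libraries, so that the 2 groups covered nearly the same range. The log2 fold change of this gene was 0.02 (standard error 0.092, 95% interval -0.19 to 0.23, adjusted p = 0.961 from edgeR). Pdp2, the phosphatase known for its response to insulin (chromosome 8, 104591451 to 104599026, plus strand), had 6.992, 8.129 and 8.947 CPM in WT and 9.791, 8.551 and 8.318 CPM in M92KO libraries, which overlapped. The log2 fold change of this gene was 0.15 (standard error 0.13, 95% interval -0.14 to 0.44, adjusted p = 0.699 from edgeR).

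Per kilobase, the kinases together stood at 8.53, 12.2 and 11.4 times the phosphatases in WT and at 7.72, 5.83 and 6.98 times in M92KO libraries. Every M92KO ratio was under every WT ratio, and the group means were 10.7 ± 1.92 (SD, n = 3) and 6.84 ± 0.951 (SD, n = 3). With the longest transcript in place of the median, which lengthens Pdp1, the means were 17.3 and 11.1, and with incomplete transcripts included they were 15.3 and 8.8, with every M92KO ratio still under every WT ratio. With Pdk4 left out of the sum, the ratio was 4.28 ± 0.329 (SD, n = 3) in WT and 4.11 ± 0.483 (SD, n = 3) in M92KO muscle (6.93 and 6.64 with the longest transcript), and the groups overlapped. Set against Pdha1, the transcript of the subunit that the kinases phosphorylate, the summed kinases stood at 1.32, 2.02 and 1.69 in WT and 1.56, 0.944 and 0.89 in M92KO libraries. By that measure the groups overlapped, and Pdha1 itself was low in M92KO replicate 1.

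The subunit genes had group means that lay close together. Pdha1, the E1 alpha subunit (chromosome X, 160122209 to 160138413, minus strand), had 1060, 1068 and 1018 CPM in WT and 839.5, 1114 and 1177 CPM in M92KO libraries. The log2 fold change of this gene was -0.01 (standard error 0.12, 95% interval -0.29 to 0.27, adjusted p = 0.989 from edgeR). An exon of Pdha1 overlaps Map3k15 on the opposite strand over 425 bases, and since the strand setting of the counting is not given in the sources used here, reads of that stretch cannot be assigned to either gene. The testis form of the subunit, Pdha2, had 0 counts in all 6 libraries.

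Pdhb, the E1 beta subunit (chromosome 14, 8165996 to 8173025, minus strand), had 398.8, 423.6 and 395.7 CPM in WT and 374.8, 416.0 and 454.6 CPM in M92KO libraries, with a log2 fold change of 0.03 (95% interval -0.16 to 0.23). Dlat, the E2 acetyltransferase (chromosome 9, 50634633 to 50659780, minus strand), had 394.7, 391.4 and 363.0 CPM in WT and 311.3, 420.3 and 425.5 CPM in M92KO libraries, with a log2 fold change of 0.01 (95% interval -0.26 to 0.28). Pdhx, the E3 binding protein (chromosome 2, 103021075 to 103073513, minus strand), had 133.4, 132.9 and 135.8 CPM in WT and 117.5, 142.0 and 152.7 CPM in M92KO libraries, with a log2 fold change of 0.04 (95% interval -0.18 to 0.25). In these 3 genes, as in Pdha1, M92KO replicate 1 was the lowest of the 6 libraries and M92KO replicate 3 the highest. edgeR gave them adjusted p-values of 0.919 to 0.983.

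The genes of the complex outside the 10 had the same order of libraries at the low end. Dld, the E3 subunit that the complex shares with its sister complexes, had 443.2, 467.9 and 422.0 CPM in WT and 359.7, 469.2 and 503.1 CPM in M92KO libraries. Pdpr, the regulatory subunit of the phosphatase, had 338.2, 333.3 and 301.6 CPM in WT and 225.6, 356.3 and 355.9 CPM in M92KO libraries. Across the E1, E2, E3 and E3 binding protein genes, 5 of 5 were lowest in M92KO replicate 1, against 25.3% of all genes tested. Of the 10 members, 6 were lowest there.

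Taken as a percentage of each gene's WT mean, the 4 subunit genes, Dld, Pdpr and Pdk1 ranged from 93.0% to 105% in the WT libraries, from 69.6% to 92.3% in M92KO replicate 1 and from 102% to 129% in M92KO replicates 2 and 3. These 7 genes were chosen for the plot after their values were seen. Without M92KO replicate 1, 4 members had a higher level in M92KO mice at an unadjusted p-value under 0.05, where 9.69% of all genes did. They were Pdk1, Dlat and Pdhx at a log2 fold change of 0.34, 0.14 and 0.14, and Pdha1 at 0.13. Of these 4, Pdk1 alone had an adjusted p-value under 0.05 in that fit, where 412 of all genes tested did. For Dlat, Pdhx and Pdha1 the adjusted values from edgeR were 0.223, 0.222 and 0.266.

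**Figure D4:**
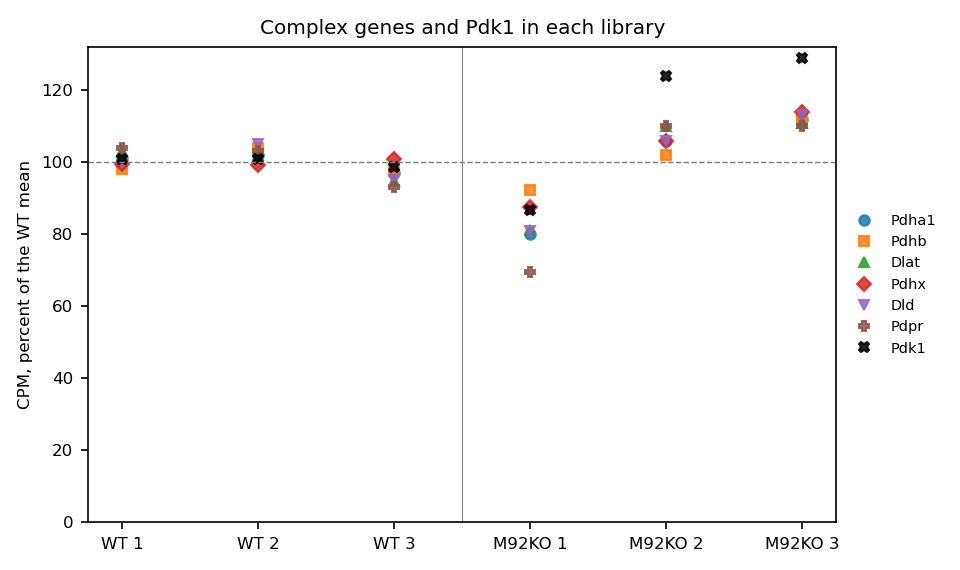
CPM of the 4 subunit genes, Dld, Pdpr and Pdk1 as a percentage of each gene's WT mean (y axis, dashed line at 100) in each WT and M92KO library (x axis). All 7 points of M92KO replicate 1 lie at or under 92.3%, and all points of M92KO replicates 2 and 3 lie at or above 102%.

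Some proportions between the subunit transcripts varied less than their levels. Dlat stood at 0.263, 0.259 and 0.252 times Pdha1 per kilobase in WT and at 0.262, 0.266 and 0.255 times in M92KO libraries. Dld stood at between 0.464 and 0.491 times Pdha1 in the 6 libraries. The M92KO replicate 1 library, at 80.1% of the WT mean for Pdha1, was thus within the range of the others for both ratios. For Pdhb and Pdhx it was outside that range. Pdhb stood at 0.84 times Pdha1 in M92KO replicate 1 and between 0.703 and 0.747 times in the other libraries, and Pdhx at 0.174 times in M92KO replicate 1 and between 0.155 and 0.166 times in the others. Pdhx stood at between 0.595 and 0.664 times Dlat, with M92KO replicate 1 at the upper end.

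In WT muscle, the order of the members per kilobase was Pdk4 (372 ± 131 CPM per kilobase, SD, n = 3), Pdha1 (368 ± 9.48), Pdhb (268 ± 10.1), Pdk2 (230 ± 2.96), Dlat (94.9 ± 4.32), Pdhx (58.5 ± 0.681), Pdp1 (56.2 ± 4.61), Pdk1 (14.9 ± 0.174), Pdp2 (1.41 ± 0.173) and Pdk3 (0.817 ± 0.166). Pdk4 and Pdha1 differed by less than the spread of Pdk4, and Pdhx and Pdp1 by less than that of Pdp1. In M92KO muscle Pdk4 stood at 160 ± 49.4 CPM per kilobase (SD, n = 3), below Pdha1 (366 ± 63.0), Pdhb (274 ± 26.4) and Pdk2 (221 ± 8.67), and the other members kept their order. The places of Pdk4 and Pdp1 depend on the lengths used. With incomplete transcripts included, Pdk4 stood at 639 CPM per kilobase in WT, above Pdha1, and at 274 in M92KO muscle, level with Pdhb and above Pdk2. With the longest transcript, Pdp1 stood at 34.2 and Pdhx at 53.5 CPM per kilobase in WT muscle.

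The genes that bring pyruvate to the complex or use it elsewhere were next compared. Of the 13 pyruvate carriers and enzymes tested, 0 had an unadjusted p-value under 0.05 in edgeR, and the median log2 fold change was 0.06. DESeq2's Wald test gave 1 such gene, and 2 were lower in edgeR without M92KO replicate 1 and 1 differed without WT replicate 1. Mpc1 and Mpc2, which form the mitochondrial pyruvate carrier, had log2 fold changes of 0.04 and -0.07. The smallest p-values belonged to Me3, a mitochondrial malic enzyme, at -0.15 (standard error 0.072, adjusted p = 0.453 from edgeR) and Gpt2, an alanine transaminase, at -0.41 (standard error 0.20, adjusted p = 0.470).

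The sister complexes of 2-oxoglutarate and branched-chain keto acids, built on the same plan, had 0 genes higher and 1 lower of 10 at an unadjusted p-value under 0.05, with a median log2 fold change of 0.02. Among all genes tested, 6.92% were lower at that threshold. The lower gene was Ogdhl, a form of the 2-oxoglutarate dehydrogenase E1, at -0.38 (standard error 0.15, adjusted p = 0.365 from edgeR). Ppm1k, the phosphatase of the branched-chain complex, stood at 0.17 (standard error 0.077, adjusted p = 0.424). Without M92KO replicate 1, 3 of the 10 were higher and 1 was lower, the quantile and limma steps gave 3 in all, and without M92KO replicate 2, M92KO replicate 3 or WT replicate 1 the count was 0. Of the 8 lipoate and thiamine cofactor genes tested, 0 had an unadjusted p-value under 0.05 in edgeR, DESeq2 or the fit without that library, with Lipt1 (0.14) and Gcsh (0.07) at the smallest p-values.

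Pdk4 was then set beside genes that are known to follow the same signals. These gene lists were chosen with earlier results of these data known. The first list held 17 targets of PPAR (the fatty acid receptors that drive Pdk4) and fasting. Of these, 6 had a lower and 0 a higher level at an unadjusted p-value under 0.05, where 6.92% of all genes were lower. The median log2 fold change was -0.12. The 6 were Acot2, Cpt1a, Slc22a5, Ucp3, Acot1 and Angptl4, with log2 fold changes between -1.27 and -0.35 and adjusted p-values from edgeR between 0.188 and 0.390. Those beyond the first 2 by p-value were named after their values were seen. Acot2, a mitochondrial acyl-CoA thioesterase, had 21.71, 28.24 and 20.33 CPM in WT and 16.33, 14.08 and 17.02 CPM in M92KO libraries, at -0.57 (standard error 0.14, adjusted p = 0.188). Cpt1a, a gatekeeper of fatty acid entry into mitochondria, had 21.99, 31.64 and 25.04 CPM in WT and 18.49, 18.75 and 15.53 CPM in M92KO libraries, at -0.58 (standard error 0.14, adjusted p = 0.192). In both genes the groups were separate. The other 11 targets had no unadjusted p-value under 0.05, among them the muscle form Cpt1b at -0.03, also named after its value was seen. The count was 3 with the study's quantile and limma steps, and it ran from 4 (without WT replicate 2, M92KO replicate 2 or M92KO replicate 3) to 8 (without M92KO replicate 1, 1 of them higher) with a library left out. DESeq2 gave 2 of the 17 an adjusted p-value under 0.05.

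**Figure D5:**
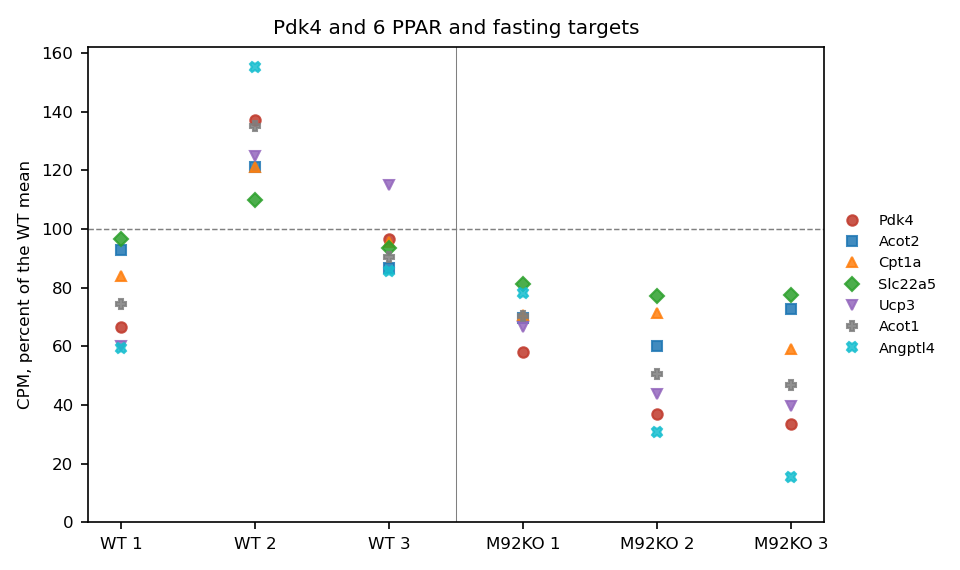
CPM of Pdk4 and of the 6 PPAR and fasting targets called lower, as a percentage of each gene's WT mean (y axis, dashed line at 100) in each library (x axis). WT replicate 2 is the highest library for all 7 genes, and Pdk4 lies at 33.6% to 58.1% in the M92KO libraries.

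WT replicate 2 was the highest library for Pdk4 and for all 6 of these targets, so the WT mice did not share 1 level of these genes. The 6 were picked by their values, and WT replicate 2 was the highest library for only some of the other targets. Of 15 glucocorticoid targets, 4 had a lower and 1 a higher level at an unadjusted p-value under 0.05, with a median log2 fold change of -0.41. Among all 15788 genes tested, 6.92% were lower and 863 genes were higher at that threshold. Zbtb16, a transcriptional repressor, was the higher one at 0.28 (standard error 0.072, adjusted p = 0.211 from edgeR) and Cdkn1a, a cell cycle inhibitor, was lower at -0.82 (standard error 0.30, adjusted p = 0.336). This count of 5 was 1 without M92KO replicate 2 or WT replicate 3, 2 without WT replicate 2 and 3 without M92KO replicate 1 or 3. It was 7 without WT replicate 1, 2 in DESeq2 and 1 with the quantile and limma steps. The median of the list was -0.06 without WT replicate 3 and -0.60 without WT replicate 1. Of the 15 targets, 0 had separate groups in the lower direction, against 9.58% of all genes, and 1 had them in the higher. Of 15 hypoxia targets, the setting in which Pdk1 is best known, 5 were higher and 1 was lower, with a median of 0.09. The same shares of all genes at an unadjusted p-value under 0.05 apply here. Bnip3, a mitophagy receptor, was at 0.45 (standard error 0.067, adjusted p = 0.165 from edgeR) and Egln3, a prolyl hydroxylase, at 0.86 (standard error 0.14, adjusted p = 0.165). Both were higher than every WT library in all 3 M92KO libraries, M92KO replicate 1 included, but they were named for their small p-values. Of the 15 targets, 6 had all M92KO libraries above all WT libraries and 1 had them below. Among all genes tested, 1385 and 1513 did. The target lower at an unadjusted p-value under 0.05 was Pfkfb3, a regulator of glycolysis, at -0.86 (standard error 0.29, adjusted p = 0.305 from edgeR). Its groups overlapped, at 630.3 CPM in M92KO replicate 1 and 628.1 CPM in WT replicate 3. The list thus did not move in 1 direction. In every alternative 5 targets were higher, and 0 to 2 were lower. At an adjusted p-value under 0.05, DESeq2 gave 3 higher and 0 lower, and edgeR without M92KO replicate 1 gave 2 higher and 1 lower.

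Of 12 transcription factors and coactivators reported to act on Pdk4, 2 had a lower and 0 a higher level at an unadjusted p-value under 0.05, and the median was 0.0. Among all genes tested, 6.92% were lower at that threshold. Foxo1, the forkhead factor that insulin keeps out of the nucleus, was at -0.21 (standard error 0.080, adjusted p = 0.352 from edgeR). Nr3c1, the glucocorticoid receptor, was at -0.20 (standard error 0.089, adjusted p = 0.399). Removal of GC and length trends gave a count of 0, as did leaving out WT replicate 3. It was 1 without WT replicate 1, WT replicate 2 or M92KO replicate 3 and 1 with the replicate number as a block, and 3 without M92KO replicate 1, all of them higher.

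Promoters (RefSeq, 250 bases before to 50 after a start) were matched for 9 of the 10 genes, with 11 promoters in all, and searched on both strands for motifs of these factors. The forkhead core GTAAACA was in 0 of the 11 and in 3.65% of 32851 promoters, and the nuclear receptor half-site AGGTCA was in 0 and in 16.3%. The glucocorticoid receptor half-site TGTTCT was in 1 (Pdk1) and in 19% of promoters. The hypoxia response core ACGTG was in 4 (Pdp2, Pdk2, Pdhb and Pdk3) and in 19.6%. In Pdp2 and Pdk2 the matches on the 2 strands overlap in one CACGTG. A window without a match says nothing of sites elsewhere.

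The pattern of Pdk4 over the 6 libraries was most closely matched, among 10442 other genes with a mean of at least 5 CPM, by Lifr (Pearson r = 0.995 of log2 CPM), Pex26 (0.993), 2610035D17Rik (0.988), Ccrl2 (0.987) and Aldh9a1 (0.985). Their log2 fold changes ran from -0.73 to -0.26 and their adjusted p-values from edgeR from 0.179 to 0.388. They are the highest of many correlations over 6 points and are given as a description.

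In whole muscle, fewer cells of a type and less RNA per cell cannot be told apart, so markers of other cell types are given beside the Pdk4 value. Fibroblast markers summed to between 1773 and 2337 CPM in WT and between 1207 and 1655 CPM in M92KO libraries, with 3 of 8 lower (Dcn at -0.33 and Col1a2 at -0.53 had the smallest p-values) and 7 of 8 lowest in M92KO replicate 1. The median log2 fold change of this list was -0.36, and -0.17 without that library, where 2 of 8 were lower. The other 2 M92KO libraries, at 1655 and 1594 CPM, also lay under every WT sum, and with a library left out the count of lower genes ran from 2 (also without WT replicate 1) to 5 (without M92KO replicate 2). Fat cell markers summed to 744 to 943 CPM in WT and 653 to 788 CPM in M92KO libraries, with 1 of 7 tested lower (Plin4 at -0.43, then Cidec at 0.95). Plin4 and Fabp4, at WT means of 510.0 and 324.4 CPM, make up most of that sum, where Adipoq averaged 0.9397 CPM. The sum is thus mainly a reading of these 2 genes and does not give a level of fat cells. The median log2 fold change of the 7 was 0.62, the opposite direction to the sum. Without WT replicate 3 or M92KO replicate 3, 3 and 2 of the 7 were higher and 0 were lower, and without M92KO replicate 2 the median was -0.04. Slow fibre markers summed to 245 to 332 CPM against 178 to 275 CPM, with a median log2 fold change of -0.26. Of the 8, 1 was lower (Tpm3 at -0.31, then Atp2a2 at -0.23), 2 without M92KO replicate 1, M92KO replicate 2 or WT replicate 3, and 3 without M92KO replicate 3. Myl3, the largest part of that sum, ran from 79.06 to 186.4 CPM within WT alone. Myl2 (0.1) and Tnnc1 (0.09) had the opposite direction to the sum.

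The remaining lists are given in the same way. Satellite cell markers summed to 38.4 to 42.9 CPM in WT and 46.8 to 50.6 CPM in M92KO libraries. Of the 5, 2 were higher (Cdh15 at 0.32, Pax7 at 0.56) and 1 was lower (Calcr at -0.9, the largest change of the list). Cdh15 is the largest part of that sum, at a mean of 21.64 CPM in WT and 27.06 CPM in M92KO muscle, so the sum does not speak for every marker. Endothelial (969 to 1048 against 884 to 1075 CPM, 1 of 8 lower, Tie1 at -0.23), macrophage (108 to 119 against 83.4 to 117 CPM, 1 of 8 lower, Ptprc at -0.53) and Schwann cell markers (134 to 184 against 134 to 141 CPM, 3 of 8 lower, Mbp at -0.39) overlapped between the groups in their sums. These counts moved with single libraries. The Schwann cell count was 1 without any 1 of the M92KO libraries, 0 without WT replicate 1 or 2 and 0 with the quantile and limma steps. The endothelial count was 5 without M92KO replicate 2 and 2 without M92KO replicate 3, 1 of them higher. The macrophage count was 2 without M92KO replicate 1 (1 of them higher) or M92KO replicate 3 and 0 without WT replicate 3. Red cell markers summed to 74.0 to 223 CPM in WT and 143 to 336 CPM in M92KO libraries, with 0 of 5 tested under an unadjusted p-value of 0.05 in edgeR and DESeq2, and 3 higher in edgeR without M92KO replicate 2. Of the 12 fast skeletal muscle genes, Myh2 was higher at 0.70, and the count was 0 without M92KO replicate 2, M92KO replicate 3 or WT replicate 3 and 2 (1 of them lower) without M92KO replicate 1. No marker was at or under 3 counts in every library, and all these counts are at an unadjusted p-value under 0.05. At that threshold, 1092 of all 15788 genes tested were lower and 863 were higher. The part of these cell types in the Pdk4 result was not tested.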

How the data were processed

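The authors deposited a table of unnormalized read counts for 34714 gene symbols and 6 libraries of Gas muscle RNA (3 WT, 3 M92KO; RNeasy extraction, SMARTer mRNA-seq kit, 1.3 ug of total RNA per the labels). The submitters' processing notes name the builds GRCm38 and mm10. The aligner, counting program, strandedness and annotation are not given in the sources used here. The study's own later steps were quantile normalization, log2 after adding 1, and limma.

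The reported fit used edgeR 4.0.16 (R 4.3.3). filterByExpr (minimum count 10, minimum total 15) left 15788 genes, libraries were TMM-normalized, and a quasi-likelihood test compared M92KO with WT without covariates. p-values were adjusted by the Benjamini-Hochberg method over all genes tested. The fit was also run on simulated counts, which held no outlying library and so do not speak for data with one such as M92KO replicate 1. Intervals of fold changes cover 95%. p-values measure the spread between these libraries, which the labels give as separate samples. Single genes also had a two-sided exact permutation test on log2(CPM + 0.5). At the depth per library (33160508 to 48209846 counts), Pdk3 had the fewest reads of the members. Alternatives were DESeq2 1.42.0 (size factors in edgeR, and the Wald test), no filter, at least 10 counts in every library, the study's limma steps (limma 3.58.1), the replicate number as a block, removal of GC and length trends (lowess span 0.3), and each library left out. For ratios between genes, no length, the longest transcript and, chosen after seeing the data, incomplete transcripts in the median were tried. Using complete transcripts alone was itself chosen after the lengths were seen.

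Positions, lengths and 3′-UTRs are from GENCODE M21 (25731 symbols matched directly, 421 by a synonym, 8562 not matched). miRNA and promoter sequences are from RefSeq. Some genes are not reported here and were left out of the lists. The members and gene lists were chosen with earlier results of these data known. The rule for named genes was all 10 members, up to 2 genes with the smallest p in each other list, Dld, Pdpr, Mpc1 and Mpc2, the 5 genes most like Pdk4, and Mir92b. Other called PPAR and fasting targets, Cpt1b, Fabp4, Pdha2, Calcr, Pfkfb3, Myl2, Myl3 and Tnnc1 were named after their values were seen. Python 3.11.15 (scipy 1.17.1, pandas 2.3.3, numpy 2.4.6, matplotlib 3.10.9) served for exact tests, summaries and plots.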

Additional observations from a re-analysis of the deposited data

How the results depend on the processing

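Pdk4 kept a negative log2 fold change and an unadjusted p-value under 0.05 in all 13 alternatives run, from -1.50 to -0.93, and Pdk1, Pdk2, Pdk3 and Pdp2 also kept their direction in all 13. The number of members with an unadjusted p-value under 0.05 was 1 in every alternative except without M92KO replicate 1, with a range of 1 to 5 over the 6 fits that leave out a library. The Pdk4 share difference of -19.5 percentage points was -19.3 without length and -18.3 with incomplete transcripts. The genes tested with an adjusted p-value under 0.05, 0 in the fit reported, were 312 in DESeq2, 6 without the filter and 42 with the quantile and limma steps, with a range of 0 to 412 when 1 library was left out (412 without M92KO replicate 1). Those with an unadjusted p-value under 0.05 were 1955 and ran from 1217 (without WT replicate 2) to 2956 (without M92KO replicate 1). The cause of these shifts was not tested.

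Members near 0 changed sign. With the quantile and limma steps, the log2 fold change was -0.02 for Pdp1, -0.02 for Pdhb and -0.06 for Dlat. With a library left out, the range was -0.05 to 0.09 for Pdp1, -0.10 to 0.13 for Pdha1, -0.04 to 0.10 for Pdhb, -0.05 to 0.14 for Pdhx and -0.07 to 0.14 for Dlat. Without WT replicate 2, Pdha1 was at 0.01. Without WT replicate 3, Pdp1 was at -0.04 and Dlat at -0.03. Without M92KO replicate 2, Dlat was at -0.06.

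The labels give both groups the replicate numbers 1 to 3, but same-numbered libraries shared little (correlations of their deviations from the group means of 0.0806, 0.0376 and 0.0151), so the numbers were not taken as pairs. Every library except WT replicate 3 correlated best with the library of its own number, which is a hint from the data and not the design. With the replicate block, 2 genes had an adjusted p-value under 0.05, 1691 had an unadjusted one under 0.05, and Pdk4 had a log2 fold change of -1.21 with an adjusted p-value of 0.277 from edgeR. The block changed no call on a member, and it lowered the count of transcription factors reported on Pdk4 from 2 to 1.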
